A study of Mus musculus with 23 samples.

Results

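The change of each gene after nerve crush was set against its change after loss of microRNA processing in Schwann cells, in mouse sciatic nerve. Each change was taken within its own experiment, as the log2 ratio of gene counts between crushed nerves and a control kind or between a mutant line and its own controls. The members were the genes that fell into a class by these calls: raised in both mutant lines and not by crush, raised by crush and in neither mutant, opposite in direction, or moved the same way in all 4 comparisons. Of 12643 genes tested in all 4 comparisons, 2570 belonged to one of these classes or to their lowered counterparts. A gene opposite in direction counts in the class of each experiment that moved it. Calls required a fold change of at least 2 and an adjusted p of at most 0.05 in the quasi-likelihood test of edgeR, adjusted by Benjamini-Hochberg over the genes tested, and "raised by crush" meant called against both control kinds.

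All 23 libraries came from mice labelled C57bl6. In the crush experiment the nerves of 2 months old wild-type males were crushed at the sciatic notch with forceps under buprenorphine analgesia, and the distal piece was taken 3 days later (crushed, n = 4). It was compared with the opposite nerve of injured mice (contralateral, n = 4) and with nerves of surgery controls that were not crushed (uncrushed, n = 3). In the mutant experiment mice carried Dicer1 flox/flox or Dgcr8 flox/flox alleles with 1 copy of a tamoxifen-inducible CreERT2 transgene (Dicer iKO and Dgcr8 iKO, n = 3 each), and controls carried the same floxed alleles without the transgene (n = 3 each). Mutants and controls of either sex received tamoxifen at 8 to 10 weeks of age and were analysed 3 months later. The transgene directed recombination to myelinating Schwann cells, and the other cells of the nerve were meant to keep their alleles. Mutant nerves were picked for an altered morphology, since the phenotype was incompletely penetrant, so the changes describe affected animals. The labels name a different library kit for each experiment, and levels were therefore never compared between them.

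Dicer cuts microRNA precursors to their mature length, and Dgcr8 is the partner of Drosha in the microprocessor, which releases those precursors from longer transcripts. Mature microRNAs bind messenger RNAs, mostly through pairing of the seed with the 3′ untranslated region (UTR), and lower their stability and translation. After a crush the axons distal to the lesion degenerate, Schwann cells give up myelin gene expression, divide and become repair cells that depend on Jun, and macrophages enter the nerve. The comparison asked which of the changes after a crush were also present in nerves whose Schwann cells had lost microRNA processing without a lesion, and which changes belonged to one experiment.

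The microRNAs shown here are those the study names as abundant in young and adult nerve, because their seeds are the sequences looked for in the gene classes. The mature sequences are from RefSeq (GRCm38.p6), 5′ to 3′, with the seed (bases 2 to 8) in capitals.
mmu-let-7f-5p: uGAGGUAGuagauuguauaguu
mmu-miR-27b-3p: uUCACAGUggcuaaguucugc
mmu-miR-26a-5p: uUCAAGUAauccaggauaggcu
mmu-miR-181a-5p: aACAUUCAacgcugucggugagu
mmu-miR-10a-5p: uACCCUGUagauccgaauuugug
mmu-miR-10b-5p: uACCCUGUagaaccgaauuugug
mmu-miR-22-3p: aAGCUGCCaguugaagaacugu
The 7 microRNAs have 6 different seeds, since miR-10a-5p and miR-10b-5p share one. The sequence of let-7f-5p lies at chr13:48537889-48537910 and at chrX:151912353-151912374, that of miR-27b-3p at chr13:63300760-63300780, and that of miR-22-3p at chr11:75463772-75463793.

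For 3 genes described in the results, stretches of 22 bases of the 3′ UTR that hold a seed match are shown as the sense strand, with the 7 bases that pair with the seed in capitals. Hmga2, a let-7 target of textbooks that encodes a chromatin protein of growing tissue, was raised in all 4 comparisons. Rgs8, a regulator of G protein signalling, and Cd28, a co-stimulatory receptor of T cells, were raised in both mutants and not by crush.
Hmga2, let-7f-5p: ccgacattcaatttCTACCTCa
Hmga2, let-7f-5p: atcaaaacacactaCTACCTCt
Rgs8, miR-27b-3p: gacctgggaagatcACTGTGAa
Rgs8, miR-27b-3p: ttgcttcttgcatgACTGTGAa
Cd28, miR-27b-3p: ttgctagtcatgatACTGTGAa
The Hmga2 stretches lie at chr10:120364224-120364245 and chr10:120361691-120361712 on the minus strand, at positions 58 and 2591 of a 3′ UTR of 3014 bases that holds 4 let-7 matches. Those of Rgs8 lie at chr1:153694055-153694076 and chr1:153700086-153700107 on the plus strand. That of Cd28 lies at chr1:60770766-60770787, also on the plus strand. All coordinates are of GRCm38.

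Total counts were 6617716 to 12806066 per library in the crush experiment and 5594859 to 10143244 in the mutant experiment. The gene lists held 43068 and 22880 genes, and every gene of the shorter list was in the longer one. A count of 3, taken as the floor of detection, corresponded to 0.234 to 0.453 CPM (counts per 1000000) in the crush libraries and 0.296 to 0.536 CPM in the mutant ones. The targeted genes were not called in their own lines. Dicer1 was at 88.1, 87.4 and 90.5 CPM in the Dicer controls and below them at 81.3, 82.1 and 82.0 CPM in the Dicer iKO, a log2 change of −0.11 ± 0.08, and Dgcr8 was at 38.4, 35.4 and 41.8 CPM in the Dgcr8 controls and 39.4, 54.0 and 41.8 CPM in the Dgcr8 iKO, a log2 change of 0.22 ± 0.15. The count sums all transcripts of a gene over whole nerve, and reads of the deleted part were not counted apart. Why neither gene was called was not tested, and these counts do not check the labels. The Y-linked genes Ddx3y and Eif2s3y were at 0 in 1 of 3 Dicer controls and 2 of 3 Dicer iKO libraries, and in none of the Dgcr8 libraries, so the sexes were unevenly spread in the Dicer comparison. In whole nerve, fewer cells of a type and less RNA per cell cannot be told apart. Each library is a sample of its own by the labels, and p-values measure the spread between these samples. By the paper's methods, the uninjured opposite nerve of the operated mice was taken along with the crushed one. Crushed and contralateral nerves are thus 2 sides of the same mice by that account. The labels do not tie a nerve to its mouse, so the tests treated these nerves as separate and left this pairing out.

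More genes were called after crush than in either mutant line. The comparisons differ in group size, sex and library kit, so these counts do not rank the size of the effects. Among the 12643 genes, 2305 (18.2%) were raised and 1640 (13.0%) lowered against uncrushed nerves, and 2043 (16.2%) were raised and 1728 (13.7%) lowered against contralateral nerves. Both crush comparisons use the same crushed nerves, and 1902 genes (15.0%) were raised and 1449 (11.5%) lowered in both. In the Dicer iKO 913 genes (7.22%) were raised and 192 (1.52%) lowered, and in the Dgcr8 iKO 1540 (12.2%) were raised and 850 (6.72%) lowered. Both mutants raised 823 genes (6.51%) and lowered 168 (1.33%). The median change over all genes was 0.20 and 0.08 on the log2 scale for crush against uncrushed and contralateral nerves, and −0.01 and −0.03 in the Dicer and Dgcr8 iKO.

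Most genes called in both mutants were also called after crush, but most genes called after crush were not called in both mutants. Of the 823 genes raised in both mutants, 640 (77.8%) were raised in both crush comparisons, 40 in one of them and 143 (17.4%) in neither. The 640 were 33.6% of the 1902 genes raised by crush, of which 434 were raised in one mutant and 828 in neither. Of the 168 genes lowered in both mutants, 134 (79.8%) were lowered by crush, and these were 9.25% of the 1449 genes that crush lowered. Positive changes in both crush comparisons were found for 92.1% of the genes raised in both mutants and for 52.1% of all genes. In the reverse view, 87.5% of the genes raised by crush had positive changes in both mutants, against 38.8% of all genes. Of the genes lowered by crush, 85.5% had negative changes in both mutants, against 40.7% of all genes. Many genes without a call in the mutants thus had a change of the same sign there. Across the 12643 genes Pearson's r of the Dicer change with the crush change was 0.62 against uncrushed and 0.65 against contralateral nerves, and that of the Dgcr8 change was 0.70 and 0.73. This r describes genes of the same tissue, which are not independent replicates.

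**Figure D1:**
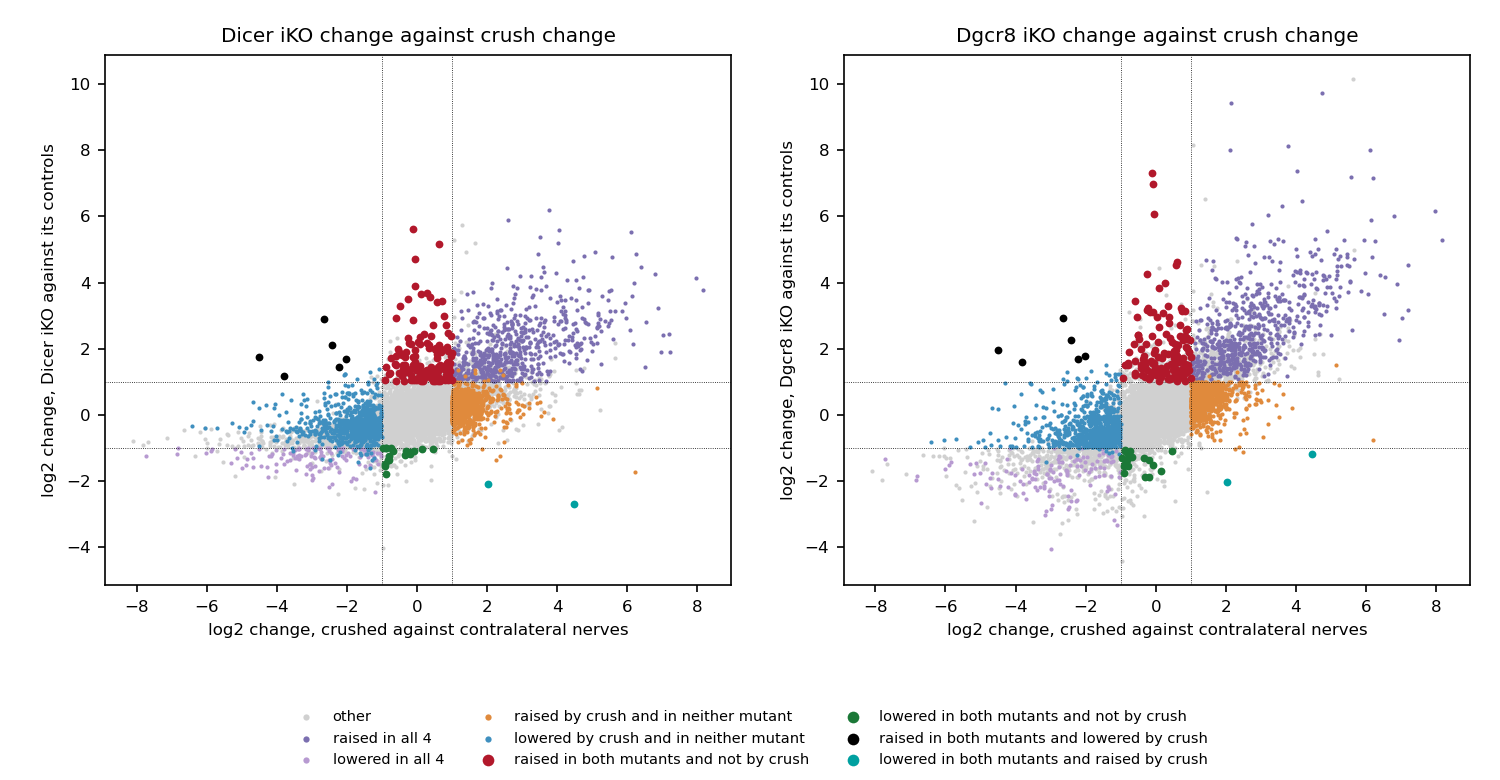
Log2 change of each of 12643 genes after crush (x axis, against contralateral nerves) and in each mutant line (y axis, against its own controls), with the gene classes coloured. Pearson's r over all genes was 0.65 for the Dicer iKO and 0.73 for the Dgcr8 iKO, and the genes raised in both mutants and not by crush sit above the cloud near 0 on the x axis.

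A gene called in one experiment and not in the other need not differ between them, so the difference was tested itself, as the mutant change minus the crush change for each mutant and each control kind. The mutant change was above the crush change in all 4 differences for 1013 genes (8.01%) and below it in all 4 for 296 genes (2.34%). Among the 143 genes raised in both mutants and not by crush, 88 passed all 4 differences. Of the 828 genes raised by crush and in neither mutant 192 passed, and of the 813 genes lowered by crush and in neither mutant 495 passed. The classes were formed from the same changes, so these counts describe how far apart the members lay and do not stand as separate evidence for the classes. A part of each difference that comes from the library kits and does not cancel within an experiment was not tested. Below, a pair of crush changes printed without its control kinds is in no fixed order.

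The genes raised in both mutants and not by crush were led by a membrane channel, transport proteins, signalling regulators and a matrix protease. Genes leading a class were chosen among those whose groups did not overlap where they were called. In the classes of 1 experiment and the opposite classes, all 4 differences also had to pass. Neither property is a separate finding for these genes. Mcoln3 encodes a cation channel of endosomes and lysosomes. Its level was 0.862, 0 and 0.135 CPM in the Dicer controls and 14.2, 16.0 and 19.2 CPM in the Dicer iKO, a log2 change of 5.61 ± 0.57 (SE; adjusted p = 0.00214). The Dgcr8 controls held 1 count in all, at 0.118, 0 and 0 CPM, and the Dgcr8 iKO held 5.66, 3.81 and 16.1 CPM, a ratio of 226 with a 95% counting interval of 40.1 to 8959. No mutant library overlapped a control, whereas the crushed nerves, at 0.722, 1.22, 1.56 and 0.943 CPM, lay within the range of the uncrushed nerves at 1.44, 1.13 and 3.07 CPM or below it. The difference between the mutant and the crush change was 5.84 ± 0.95 to 8.12 ± 1.23.

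Mmp12, the macrophage elastase, stood at 4.31, 3.44 and 3.24 CPM in the Dicer controls and 27.2, 41.6 and 55.2 CPM in the Dicer iKO. In the Dgcr8 line it was at 3.19, 4.63 and 3.42 CPM in controls and 77.0, 20.9 and 114 CPM in mutants. The groups did not overlap in either line, and the log2 changes were 3.49 ± 0.30 (adjusted p = 0.00152) and 4.24 ± 0.55 (adjusted p = 0.000118). Crush left Mmp12 at 7.22, 10.7, 9.44 and 9.71 CPM, against 11.8, 9.11, 10.4 and 13.7 CPM in contralateral and 13.6, 17.9 and 21.6 CPM in uncrushed nerves, log2 changes of −0.26 ± 0.15 and −0.81 ± 0.17 that were not called. The crushed nerves thus lay below all uncrushed nerves and overlapped the contralateral ones. The 4 differences ran from 3.87 to 5.32.

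Cspg5, a chondroitin sulfate proteoglycan of neural tissue, was at 1.01, 1.19 and 0.811 CPM in Dicer controls and 3.86, 15.4 and 19.5 CPM in the Dicer iKO, and at 1.30, 2.45 and 1.14 CPM in Dgcr8 controls and 20.2, 17.5 and 31.4 CPM in the Dgcr8 iKO. Its log2 change was 3.66 ± 0.64 and 3.84 ± 0.32 in the mutants and 0.11 ± 0.18 and −0.53 ± 0.25 after crush. Stra6l, a membrane protein related to a retinol carrier receptor, changed by 4.71 and 6.98 in the mutants and by −0.06 and −0.61 after crush. Both genes were higher in every mutant library than in any control.

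Rgs8 changed by 3.90 ± 0.89 in the Dicer iKO, a call that was lost without Dicer iKO replicate 2 or 3, and held 2 counts over the Dgcr8 controls against 168 in the Dgcr8 iKO, a ratio of 83.9 (counting interval 22.9 to 699). Its crush changes were −0.05 and −0.17. Slc40a1, the cellular iron exporter, changed by 3.45 and 3.23 in the mutants and by 0.71 and 0.35 after crush. Il18bp, which binds and blocks interleukin-18, changed by 2.99 and 3.13 in the mutants and by 0.76 and 0.65 after crush.

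Glipr1, a secreted protein of the CAP family, changed by 3.68 and 3.97 in the mutants and by 0.28 and −0.18 after crush. Rgs1, a regulator of G protein signalling in leukocytes, changed by 3.40 and 4.53 in the mutants and by 0.58 and −0.13 after crush. Tenm1, a teneurin of neural connections, changed by 2.92 and 3.43 in the mutants and by −0.59 after crush against contralateral nerves, and crush lowered it against uncrushed nerves, at −1.24. The mutant libraries of these 3 genes lay above all controls of their line.

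Cd28 changed by 5.16 ± 0.80 in the Dicer iKO and 4.63 ± 0.41 in the Dgcr8 iKO, and by 0.62 and 0.12 after crush. The summed level of the 11 T and B cell markers was 2.03 to 3.88 CPM over the Dicer controls and 13.3 to 32.4 CPM in the Dicer iKO, and 1.53 to 2.49 CPM and 22.6 to 31.3 CPM in the Dgcr8 line. In crushed nerves the sum was 5.78 to 8.20 CPM, at or below the 8.17 to 8.82 CPM of contralateral and the 12.2 to 19.8 CPM of uncrushed nerves. Most of the sum in the Dicer iKO was Cd4, at 11, 22.1 and 25.7 CPM, while Cd3e, the defining T cell marker, was at 0, 0.345 and 0 CPM there and at 0.354, 0.954 and 0.117 CPM in the Dgcr8 iKO. The part of these cells in the change of Cd28 was not tested. The sum of 7 mast cell markers was also higher in mutants, at 260 to 356 CPM against 43.6 to 219 CPM in the Dicer line and 94.5 to 133 CPM against 16.6 to 58.9 CPM in the Dgcr8 line. None of the 7 was called in the Dicer iKO (5 were raised without Dicer control 1), and 5 of 6 tested were raised in the Dgcr8 iKO. The sum was 5.62 to 12 CPM in crushed, 5.26 to 42.2 CPM in contralateral and 8.38 to 19.2 CPM in uncrushed nerves.

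**Figure D2:**
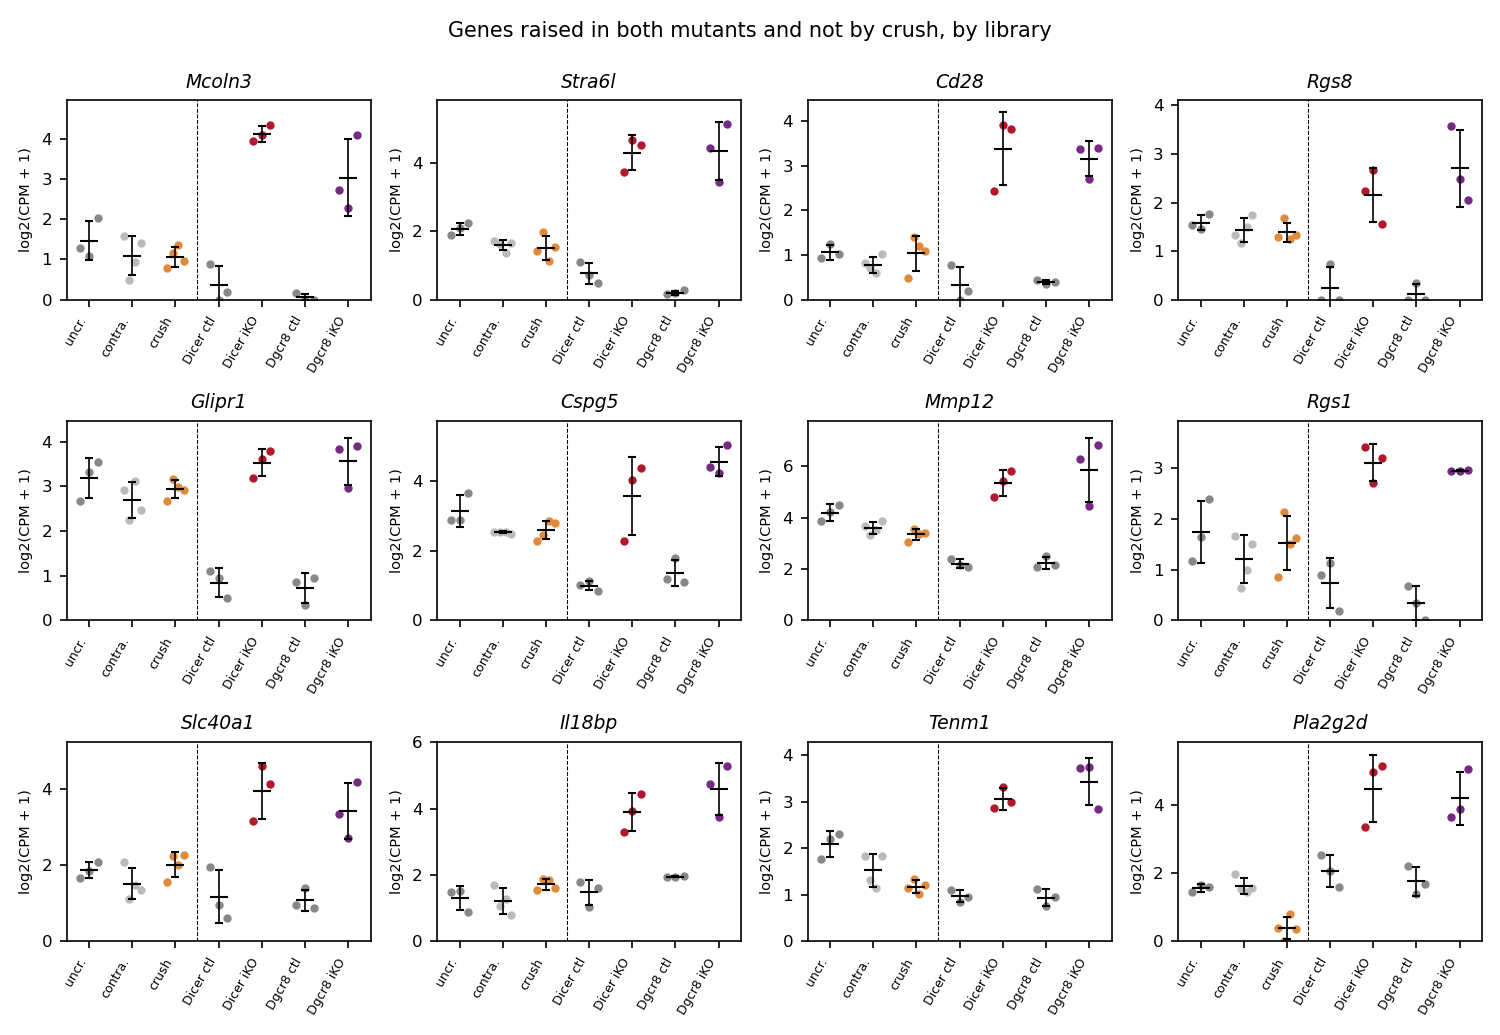
Level of genes raised in both mutants and not by crush in every library (y axis, log2 of CPM + 1), with 1 point per library, bars at the group mean and error bars of 1 SD. Levels can be compared only within each side of the dashed line, which parts the crush from the mutant experiment. In each line all mutant libraries lie above their controls, which the choice of these genes required.

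In the collagen family, which was picked after its values were seen, the mutants raised more genes than they lowered and crush lowered more than it raised. Of 34 collagen genes tested in all comparisons, 12 were raised (7 without Dicer iKO replicate 3) and 2 lowered in the Dicer iKO and 18 raised and 3 lowered in the Dgcr8 iKO, with median log2 changes of 0.73 and 1.07. Crush raised 6 and lowered 14 against either control kind, with medians of −0.59 against uncrushed and −0.54 against contralateral nerves. For 20 of the 34 the mutant change was above the crush change in all 4 differences, and for none was it below.

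Col1a1, the main chain of type I collagen, was at 2118, 1619 and 738 CPM in Dicer controls and 5168, 4822 and 5601 CPM in the Dicer iKO. In the Dgcr8 line it was at 1528, 2052 and 1221 CPM in controls and 3949, 3921 and 5672 CPM in mutants. The mutants lay above every control, with log2 changes of 1.80 and 1.5, while crushed nerves, at 1168, 1074, 1218 and 1110 CPM, lay below the contralateral nerves at 1662, 1595, 1472 and 1475 CPM, a change of −0.42 that was under the fold limit. The 4 differences ran from 2.04 ± 0.33 to 2.52 ± 0.34.

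Of the 9 fibroblast markers, Col1a1, Col3a1 and Lum were raised in both mutants and not by crush, and 5 of the 9 had a mutant change above the crush change in all 4 differences. The Dicer iKO raised these 3 alone, and 0 of the 9 without Dicer control 2 or without Dicer iKO replicate 2 or 3. Col1a2 was lowered by crush, at −1.05 and −1.13, and its change was 0.95 in the Dicer iKO, not called, and 1.04 in the Dgcr8 iKO, called. Not every marker followed: Pdgfra, a receptor that marks fibroblasts, changed by −0.38 and −0.11 in the mutants and by −0.07 and 0.22 after crush, and none of these was called. Crush raised 1 of the 9, with highest changes of 1.46 against uncrushed and 1.75 against contralateral nerves. It lowered 2, with lowest changes of −4.57 and −3.72 in the same order. The summed fibroblast level was 23796 to 24763 CPM in the Dicer iKO against 6128 to 17602 CPM in its controls and 18748 to 22315 CPM in the Dgcr8 iKO against 8186 to 10676 CPM, and 3454 to 4067 CPM in crushed nerves against 5144 to 6512 CPM in contralateral ones. Col1a1, Col1a2 and Col3a1 belong to both the marker list and the collagen family, so this sum is not independent of the collagen changes. The part of fibroblast number in the collagen changes was not tested.

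The genes raised by crush and in neither mutant held enzymes, immediate early and stress genes and a growth factor receptor. Gadd45b, a stress gene, was at 56.9, 37.1, 38.8 and 36.6 CPM in crushed nerves, against 3.11, 5.89, 2.81 and 2.56 CPM in contralateral and 2.07, 2.38 and 2.90 CPM in uncrushed nerves. Its levels overlapped in both mutant lines, at 12.4, 11.8 and 14.5 CPM in Dicer controls and 11, 13.6 and 12.6 CPM in the Dicer iKO, and at 20.1, 11.8 and 19.5 CPM in Dgcr8 controls and 16.6, 12.1 and 20.4 CPM in the Dgcr8 iKO. The log2 changes were 3.53 ± 0.23 and 4.25 ± 0.23 after crush and −0.05 ± 0.17 and −0.08 ± 0.24 in the mutants, and the mutant-minus-crush differences ran from −4.06 to −3.49.

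Car2, a carbonic anhydrase, was at 31.5, 22.4, 23.5 and 21.3 CPM in crushed nerves and at no more than 1.19 CPM in any nerve of the control kinds, log2 changes of 6.21 ± 0.23 and 4.89 ± 0.25. In the mutants it changed by −1.74 ± 0.75 and −0.77 ± 0.37, which were not called, and the differences ran from −7.85 to −5.39. Met, the receptor of hepatocyte growth factor, was at 353, 313, 351 and 275 CPM in crushed nerves against 30.5, 37.9 and 35.6 CPM in uncrushed ones, a change of 3.32 ± 0.13. It changed by 0.02 ± 0.18 in the Dicer iKO and by 0.73 ± 0.14 in the Dgcr8 iKO, under the fold limit.

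Fos, a subunit of the AP-1 transcription factor, changed by 3.39 and 3.29 after crush and by 0.55 and 0.96 in the mutants. Wfs1, a protein of the endoplasmic reticulum, changed by 3.63 and 3.88 after crush and by 0.09 and 0.63 in the mutants. Ccr1, a chemokine receptor of myeloid cells, changed by 5.13 and 5.22 after crush, and its mutant changes of 0.80 ± 0.49 and 1.49 ± 0.75 were not called. For all 3 genes the mutant change was below the crush change in the 4 differences. Other leading genes of the class included Fam102a, Eps8, an actin regulator, Dok4, a docking protein of receptor kinases, and Cgref1. Their crush changes lay between 3.21 and 4.35 and their mutant changes between −0.30 and 0.88.

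Crush raised a part of the ribosomal protein genes and all Mcm genes of DNA replication. Of 75 genes of cytosolic ribosomal proteins, a family picked after its values were seen, 31 were raised by crush against either control kind, the others were not called, and none was called in either mutant. Against uncrushed nerves the 31 became 56 without uncrushed replicate 1. The family medians were 0.94 and 0.88 against uncrushed and contralateral nerves and −0.12 and −0.18 in the Dicer and Dgcr8 iKO, and 13 of the 75 had a mutant change below the crush change in all 4 differences. All 6 Mcm genes, which encode the replicative helicase, were raised by crush with medians of 3.08 and 3.02. None was raised in the Dicer iKO and 3 were raised in the Dgcr8 iKO, with medians of 0.44 and 0.97, and all 6 differed in all 4 contrasts. These families share sequence with pseudogenes, and a split of reads among copies was not tested.

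The MHC class II genes of antigen presentation were split after crush, and a pair of macrophage markers was also in this class. Of 7 MHC class II genes, 4 were raised by crush and in neither mutant: H2-Ab1, H2-Eb1, Cd74 and Ciita, the master regulator of the group. H2-Aa was raised against contralateral nerves alone. H2-DMa and H2-DMb1, which encode the chaperone that loads peptides, were lowered by crush. H2-DMa changed by −2.28 against uncrushed and −2.63 against contralateral nerves, and H2-DMb1 by −2.04 and −2.28. The Dgcr8 iKO also lowered both, at −1.29 and −1.26, and the Dicer iKO called none of the 7. For these 2 genes the mutant change was above the crush change in all 4 differences. Ciita changed by 2.18 against uncrushed and 1.82 against contralateral nerves and by 0.43 and 0.44 in the mutants. Its differences of −1.50 to −1.25 passed in all 4 contrasts. For Cd74, the invariant chain, none of the 4 differences passed, the widest being −0.89 ± 0.41. Mrc1, the mannose receptor of tissue macrophages, changed by 2.58 and 2.53 after crush and by 0.34 and 0.20 in the mutants, with differences of −2.25 to −1.93 that all passed. Cd14 was raised by crush at 1.67 and 1.71 and changed by 0.31 and 0.71 in the mutants, and its differences passed only in the Dicer line.

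The opposite pattern, raised in both mutants and lowered in both crush comparisons, was found for 6 genes: Emid1, Pla2g2d, Stum, Ppp2r2c, Oxtr and Fst. The reverse, lowered in both mutants and raised by crush, was found for Mmp9 and Tagln3. All 8 passed all 4 differences, which their opposite calls make likely beforehand.

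Emid1, which encodes a secreted protein with a collagen stretch (chr11:5106265-5152257), was at 1.60, 1.63, 1.65 and 1.32 CPM in crushed nerves, 31.6, 41.4, 38.5 and 30.7 CPM in contralateral and 47.8, 37.1 and 26.8 CPM in uncrushed nerves, a log2 change of −4.49 ± 0.16 and −4.49 ± 0.22. In the mutants it went from 15.7, 23.4 and 30.0 CPM to 61.8, 78.1 and 91.4 CPM in the Dicer line and from 28.9, 43.8 and 25.2 CPM to 177, 133 and 71.4 CPM in the Dgcr8 line. No group overlapped its control, the mutant changes were 1.74 ± 0.24 and 1.97 ± 0.30, and the differences ran from 6.34 to 6.72. Of the 6 genes, Emid1 kept its place in the class under every alternative fit.

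Fst, which encodes follistatin, a secreted inhibitor of activins (chr13:114452290-114458951), was at 0.883, 0.489, 0.550 and 0.189 CPM in crushed and 7.36, 8.33, 9.03 and 6.15 CPM in contralateral nerves. It was at 3.30, 3.83 and 4.19 CPM in Dicer controls against 10.8, 6.21 and 8.17 CPM in the Dicer iKO, and at 3.90, 3.54 and 4.25 CPM in Dgcr8 controls against 13.2, 11.8 and 10.3 CPM in the Dgcr8 iKO. The groups were apart in all of these, with log2 changes of −3.80, 1.16 and 1.58. The Dicer call of 1.16 ± 0.27 was lost without Dicer control 2 or without Dicer iKO replicate 1 or 3, at log2 changes of 0.94 to 1.19.

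Pla2g2d, a secreted phospholipase of immune tissue, changed by −2.64 and −2.43 after crush and by 2.89 and 2.92 in the mutants. Stum changed by −2.42 and −2.77 after crush and by 2.11 and 2.25 in the mutants. Ppp2r2c, a regulatory subunit of protein phosphatase 2A, changed by −2.21 and −2.26 after crush and by 1.45 and 1.67 in the mutants. The groups of these 3 genes did not overlap in any comparison that called them, whereas the mutant and control levels of Oxtr, the oxytocin receptor, overlapped in the Dgcr8 line, at 8.14, 12.5 and 2.92 CPM against 3.42, 1.90 and 1.55 CPM.

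Mmp9, a gelatinase carried by neutrophils and also made by other cells (chr2:164940780-164955850), was at 12.1, 15.6, 17.1 and 23.4 CPM in crushed nerves, 0.943, 0.785, 1.0 and 0.308 CPM in contralateral and 1.17, 1.38 and 1.19 CPM in uncrushed nerves. It went from 8.33, 7.27 and 2.16 CPM to 0.666, 1.21 and 0.831 CPM in the Dicer line and from 8.03, 3.40 and 8.08 CPM to 2.36, 2.86 and 3.38 CPM in the Dgcr8 line. The groups lay apart after crush and in the Dicer line, and in the Dgcr8 line the highest mutant library lay at the level of the lowest control. The log2 changes were 4.47 and 3.86 after crush and −2.71 ± 0.58 (adjusted p = 0.0173) and −1.19 ± 0.35 (adjusted p = 0.0161) in the mutants. The Dicer call was lost without Dicer control 2 or Dicer iKO replicate 2 or 3, and the Dgcr8 call without Dgcr8 control 1 or 3 or Dgcr8 iKO replicate 1.

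Tagln3, a neuronal relative of the calponins, changed by 2.02 and 1.83 after crush and by −2.09 ± 0.49 and −2.03 ± 0.32 in the mutants, with differences of −4.01 to −3.61. Its Dicer call was lost without Dicer control 2 or Dicer iKO replicate 2.

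**Figure D3:**
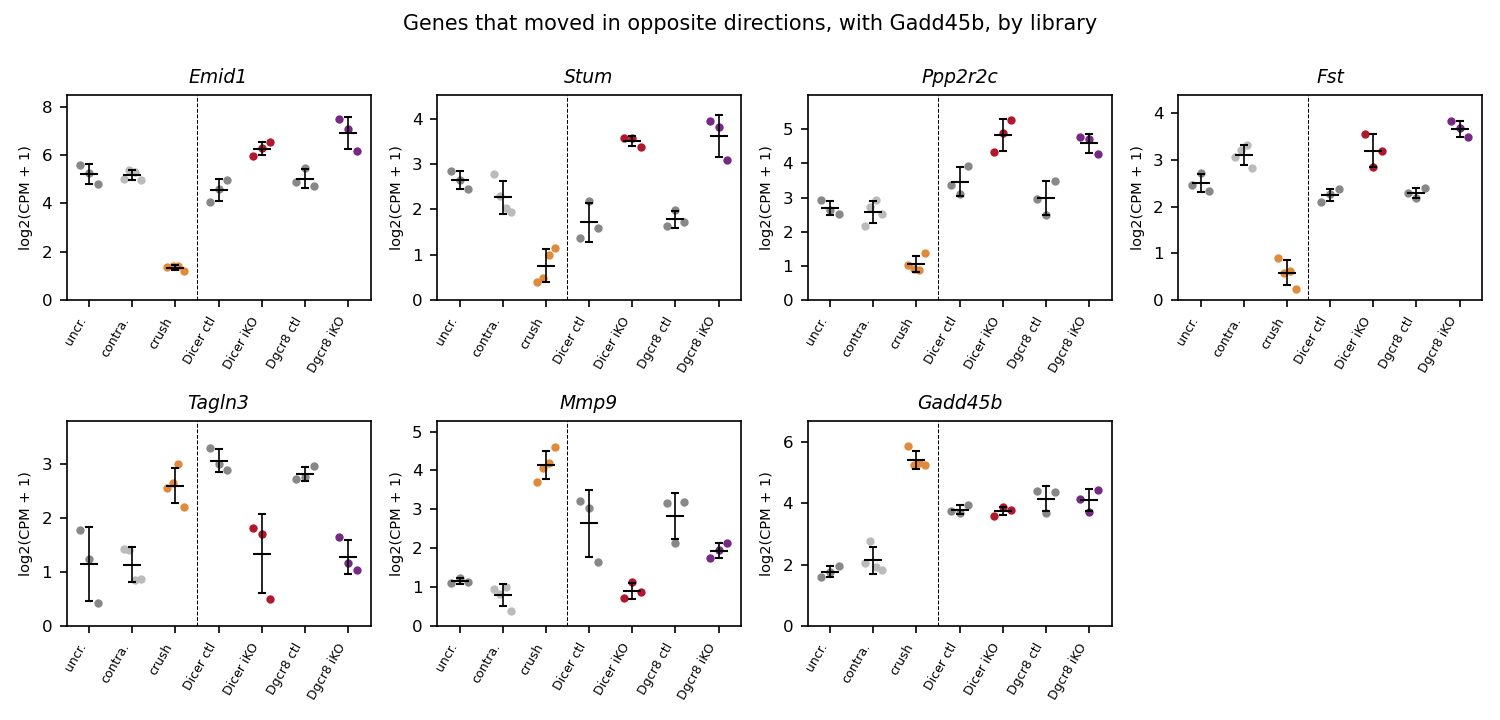
Level of genes that moved in opposite directions in the 2 experiments, with Gadd45b, in every library (y axis, log2 of CPM + 1), with 1 point per library, bars at the group mean and error bars of 1 SD. Levels can be compared only within each side of the dashed line: Emid1 falls to 1.32 to 1.65 CPM in crushed nerves and lies above all controls in both mutants, and Mmp9 goes the other way. The genes were chosen among those whose groups did not overlap where they were called.

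Myelin genes were among those lowered by crush and in neither mutant. Of 20 myelin genes, crush lowered 16 against uncrushed and 17 against contralateral nerves, with median log2 changes of −3.81 and −3.93. In the Dicer iKO none of the 20 was called, with a median of −0.47, and in the Dgcr8 iKO 8 were lowered and 1 raised, with a median of −0.84. Without Dicer control 1 the Dicer iKO lowered 5, and without Dgcr8 iKO replicate 3 the Dgcr8 iKO lowered 5. For 16 of the 20 the mutant change was above the crush change in all 4 differences.

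Leading genes of the class included Slc9a3, a sodium-proton exchanger, Fam107a, Cmtm5, Ccdc13 and Ugt8a, which makes the galactolipids of myelin. Their crush changes lay between −7.16 and −4.67 and their mutant changes between −0.98 and −0.26.

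Some myelin genes went against the list. Pmp2, a fatty acid binding protein of myelin, fell by 3.60 and 3.50 after crush, and its mutant changes were 0.43 ± 0.20 and 0.97 ± 0.18, under the fold limit and positive. Its mutant libraries, at 942, 991 and 953 CPM and 933, 935 and 1040 CPM, lay above every control library of their line. Gjb1, the gap junction gene connexin 32, was raised by crush, at 1.77 against uncrushed and 1.61 against contralateral nerves. It went from 39.3 to 53.8 CPM over all control nerves to 112 to 189 CPM, and changed by −0.36 and −0.58 in the mutants. Its differences of −2.08 to −1.87 made it the 1 myelin gene with a mutant change below the crush change in all 4 contrasts. Fa2h, which hydroxylates the fatty acids of myelin lipids, fell by 7.66 and 7.36 after crush and by 1.51 in the Dgcr8 iKO, and its change of −0.82 in the Dicer iKO was not called.

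Crush and the Dgcr8 iKO lowered most cholesterol synthesis genes, and the Dicer iKO lowered fewer. Of 20 genes of the pathway 19 were lowered by crush against either control kind, 9 in the Dicer iKO and 16 in the Dgcr8 iKO, with medians of −2.96, −3.38, −0.89 and −1.67 in the order uncrushed, contralateral, Dicer and Dgcr8. The 9 became 3 without Dicer control 2, 1 without Dicer iKO replicate 2 or 3 and 0 with the replicate block. For 14 of the 20 the mutant change was above the crush change in all 4 differences. Hmgcs1, an early enzyme of the pathway, changed by −4.86 against uncrushed and −5.03 against contralateral nerves and by −1.13 and −1.76 in the mutants. Ebp, a late isomerase of the pathway, was the gene that crush did not lower, at 0.14 against uncrushed and −0.16 against contralateral nerves.

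Genes lowered in both mutants and not by crush were few, 20 in all, and 3 passed all 4 differences: Mmp9 and Tagln3, described above, and Cobll1. Cobll1, a relative of an actin nucleator, was at 43.7, 39.3 and 41.3 CPM in Dicer controls and 24.1, 16.7 and 19.2 CPM in the Dicer iKO, log2 changes of −1.04 ± 0.15 and, in the Dgcr8 iKO, −1.11 ± 0.17. Its crush changes of 0.47 and 0.82 were under the fold limit. The Dicer call was lost without Dicer iKO replicate 2 and the Dgcr8 call without Dgcr8 control 2.

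Among the genes raised in all 4 comparisons were markers of repair Schwann cells. Of the repair genes tested, 13 of 18 and 15 of 17 were raised against uncrushed and contralateral nerves, 11 of 16 in the Dicer iKO and 13 of 16 in the Dgcr8 iKO, and 10 were raised in all 4. The median log2 changes were 3.69 and 3.74 after crush and 1.64 and 2.42 in the mutants. For 6 genes the mutant change was below the crush change in all 4 differences and for 1, Gfap, it was above. This list was chosen with the study's account of these samples known and is not independent evidence of its direction.

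Shh, sonic hedgehog, a ligand of repair Schwann cells, was at 467, 336, 361 and 306 CPM in crushed nerves and 2.07, 2.20, 3.01 and 2.87 CPM in contralateral ones. It was at 4.31, 5.29 and 3.38 CPM in Dicer controls and 13.2, 32.6 and 24.5 CPM in the Dicer iKO, and at 3.31, 4.49 and 4.46 CPM in Dgcr8 controls and 36.2, 39.6 and 34.8 CPM in the Dgcr8 iKO. All groups lay apart, and the log2 changes of 7.20 and 7.48 after crush were above those of 2.43 and 3.17 in the mutants, with differences of −4.81 to −3.92.

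Jun, the transcription factor at the head of the repair program, changed by 2.68 and 2.95 after crush and by 1.01 ± 0.18 and 1.54 ± 0.13 in the mutants, with differences of −1.69 to −1.02. Its Dicer call sat at the fold limit and was lost without Dicer control 2 or 3 or Dicer iKO replicate 3. Ngfr, the low-affinity neurotrophin receptor, changed by 4.66 and 5.05 after crush and by 1.37 and 2.43 in the mutants. Its Dicer call was lost without Dicer control 2 or Dicer iKO replicate 2 or 3.

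Gdnf, a trophic factor of motor neurons, was at 138, 82.1, 94.4 and 74.7 CPM in crushed nerves, against 0.942 to 1.33 CPM in contralateral ones. The Dicer controls held 2 counts in all and the Dicer iKO 48, a ratio of 27.1 (counting interval 7.09 to 230), and the Dgcr8 iKO held 6.13, 7.34 and 11.8 CPM against 0.118, 0.816 and 0.415 CPM. None of its 4 differences passed, at −1.08 ± 2.04 and −1.80 ± 1.97 in the Dicer line and −1.33 ± 0.83 and −2.04 ± 0.85 in the Dgcr8 line.

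Gfap, an intermediate filament of immature and repair Schwann cells, was at 2.30, 6.21 and 3.24 CPM in Dicer controls and 22.9, 22.6 and 32.4 CPM in the Dicer iKO, and at 8.15, 3.81 and 4.56 CPM in Dgcr8 controls and 38.2, 35.4 and 28.9 CPM in the Dgcr8 iKO. Crushed nerves held 7.22, 9.12, 9.08 and 7.92 CPM against 2.17, 2.91, 3.31 and 3.90 CPM in contralateral and 5.30, 4.0 and 5.79 CPM in uncrushed nerves. All groups lay apart, and Gfap rose by 2.72 and 2.62 in the mutants and by 1.46 against contralateral nerves, while its change of 0.83 against uncrushed nerves was under the fold limit. The differences, 1.28 ± 0.36 to 2.15 ± 0.39, passed in all 4 contrasts.

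The list of 13 let-7 targets and oncofetal genes did not move as one. Of 12 tested after crush, 4 were raised and 4 lowered against uncrushed nerves and 4 raised and 2 lowered against contralateral ones, with median log2 changes of 0.11 and 0.03. Of 10 tested in each mutant, the Dicer iKO raised 2 and lowered none and the Dgcr8 iKO raised 4 and lowered 1, with medians of 0.47 and 0.50. Hmga2 and Hmga1 were raised in all 4 comparisons, and Igf2bp2 and Arid3a by crush and in the Dgcr8 iKO. Crush lowered Plag1, at −1.27 and −1.50, and Igf2bp1, at −1.38 and −1.08. Lin28b, which blocks let-7 maturation, fell by 3.41 in the Dgcr8 iKO and by 1.38 against uncrushed nerves and was not tested in the Dicer line.

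Hmga2, whose matches are printed above, was at 189, 169, 173 and 135 CPM in crushed nerves and 3.77, 2.83, 3.51 and 3.18 CPM in contralateral ones. It went from 0.862, 0.529 and 0.405 CPM to 3.33, 5.69 and 7.20 CPM in the Dicer line and from 0.944, 0.408 and 0.622 CPM to 13.4, 13.4 and 27.4 CPM in the Dgcr8 line. The groups lay apart throughout, with log2 changes of 5.66 and 5.63 after crush and 3.15 and 4.73 in the mutants. The differences passed in the Dicer line, at −2.40 and −2.23, and not in the Dgcr8 line, at −0.82 ± 0.59 and −0.65 ± 0.61. Hmga1, its paralog, changed by 6.88 against uncrushed and 6.51 against contralateral nerves. In the mutants it changed by 1.44 and 3.05, with differences of −5.18 to −3.35 that all passed.

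Outside the repair list, genes raised in all 4 comparisons were led by Atp6v0d2, a subunit of the vesicular proton pump, at 6.11 and 5.77 after crush and 5.54 and 8.01 in the mutants, and by Fetub, a secreted protease inhibitor, at 5.08 and 5.24 after crush and 4.92 and 4.86 in the mutants. Nr1h4, the bile acid receptor, was listed at 0 counts in all Dgcr8 controls and was at least 35.6-fold higher in the Dgcr8 iKO, against a floor of 3 counts per library. Btc, betacellulin, a ligand of the EGF receptor, changed by 7.97 and 7.90 after crush and by 4.15 and 6.15 in the mutants. Cxcl14, a chemokine, changed by 5.96 against uncrushed and 6.19 against contralateral nerves and by 3.98 and 7.15 in the mutants. Apoc2, an activator of lipoprotein lipase, held 3 counts over the contralateral nerves and 2 over the Dgcr8 controls, and its ratio was 137 (counting interval 46.6 to 668) and 80.4 (21.9 to 670). Genes lowered in all 4 were led by Rph3a and Cplx1, of synaptic vesicles, Nefh and Stmn3, of axons and neurons, Ppl, of cell junctions, and Mgl2, a lectin of macrophages. Nefh, the heavy neurofilament chain, was at 4.25, 3.75, 4.31 and 3.49 CPM in crushed against 30.1, 29.2, 30.9 and 37.5 CPM in contralateral nerves, and at 7.19, 2.07 and 3.32 CPM in the Dicer iKO against 17.2, 18.6 and 15.5 CPM in its controls. Its Dicer call was lost without Dicer control 2 or Dicer iKO replicate 3.

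Most cell cycle and macrophage genes were raised in both experiments. All 22 cell cycle genes were raised by crush against either control kind, 14 of 21 in the Dicer iKO and 21 of 22 in the Dgcr8 iKO, with medians of 3.83, 4.43, 2.36 and 3.88 in the order uncrushed, contralateral, Dicer and Dgcr8. Of 20 macrophage markers crush raised 19 against either control kind, the Dicer iKO 15 (8 with the replicate block) and the Dgcr8 iKO 17, with medians of 2.51, 2.96, 2.48 and 3.10. The summed macrophage level was 1156 to 2551 CPM in crushed nerves against 199 to 351 CPM in contralateral ones, 5624 to 10693 CPM in the Dicer iKO against 592 to 1757 CPM and 4005 to 10430 CPM in the Dgcr8 iKO against 569 to 670 CPM. Trem2, a lipid receptor of macrophages, changed by 2.81 and 2.49 after crush and by 3.66 and 5.12 in the mutants. The hemoglobin receptor Cd163 was the macrophage marker that crush did not raise, at 0.35 and 0.56, and the Dgcr8 iKO lowered it, at −2.61. The part of macrophage number in the classes was not tested.

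**Figure D4:**
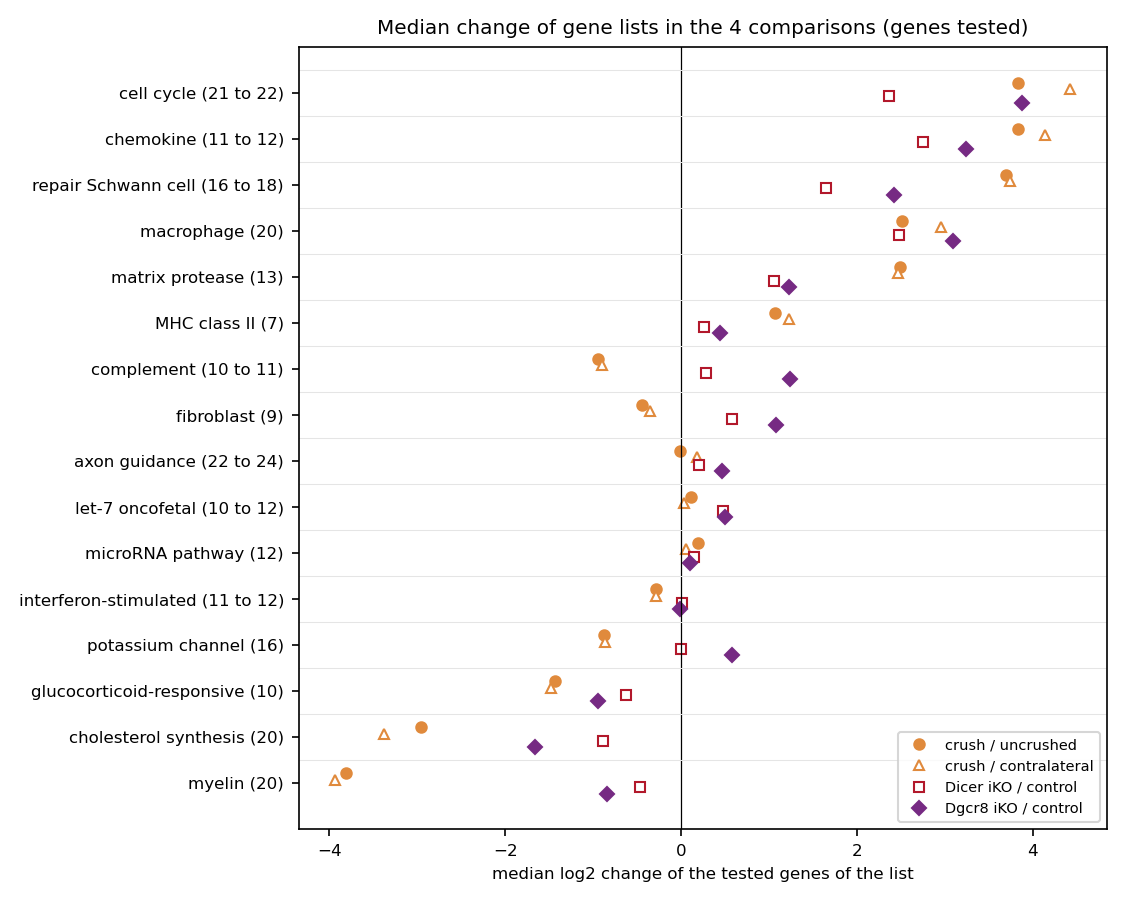
Median log2 change of each gene list (y axis) in the 4 comparisons (x axis, log2 scale; 1 marker per comparison). Myelin lies at −3.81 and −3.93 after crush and −0.47 and −0.84 in the mutants. The fibroblast median lies below 0 after crush and above 0 in the mutants, though single members went the other way.

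Other lists were split, and some of their counts lay near the shares over all genes. Of all 12643 genes, crush raised 18.2% and lowered 13.0% against uncrushed nerves. Against contralateral nerves it raised 16.2% and lowered 13.7%. The Dicer iKO raised 7.22% and lowered 1.52%, and the Dgcr8 iKO raised 12.2% and lowered 6.72%. Of the chemokines tested, crush raised 11 of 12 and 10 of 11, the Dicer iKO 8 of 11 (5 without Dicer iKO replicate 3) and the Dgcr8 iKO 9 of 11. Of the complement genes tested, crush raised 3 and lowered 5 of 11, the Dicer iKO called none of 10, and the Dgcr8 iKO raised 7 and lowered 1 of 11; 6 had a mutant change above the crush change in all 4 differences. C3, the central complement protein, changed by −2.19 against uncrushed and −2.63 against contralateral nerves. In the mutants it changed by 0.30 and 0.94, neither called, with differences of 2.75 to 3.67. Of the potassium channel genes, Kcnj10, an inward rectifier of glia, was raised in all 4, by 1.43 and 1.18 after crush and by 3.65 and 4.70 in the mutants, and its differences of 2.33 to 3.78 all passed. Of 16 channel genes tested, crush raised 2 and lowered 8 against uncrushed nerves and raised 2 and lowered 7 against contralateral ones. The Dicer iKO raised 3 and lowered 1, and the Dgcr8 iKO raised 3 and lowered 3.

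Of 10 glucocorticoid-responsive genes, crush lowered 7 and 6, the Dicer iKO 1 and the Dgcr8 iKO 5. Of the axon guidance genes, crush raised 5 and 6 and lowered 5 of 24, the Dicer iKO raised 4 of 22 and the Dgcr8 iKO raised 9 and lowered 2 of 23. Sema3f, a secreted semaphorin, was the axon guidance gene raised in both mutants, at 1.06 and 1.2, and not by crush, at 0.63 and 0.63. Of the 12 genes of the microRNA pathway none was called in any comparison, and their median changes were 0.19, 0.06, 0.14 and 0.11 in the order uncrushed, contralateral, Dicer and Dgcr8. Of the interferon-stimulated genes, crush lowered 4 of 11 and 3 of 12 and raised none against uncrushed and 1 against contralateral nerves, and neither mutant called any of 12. Of 11 endothelial and mural markers crush raised 2, the Dicer iKO called none and the Dgcr8 iKO lowered 1. The 2 raised and the 1 lowered marker lie near the shares over all genes given above.

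Seed matches were counted in the longest annotated 3′ UTR of each gene, for 12403 of the 12643 genes. A match to at least 1 of the 6 seeds was found in 61.0% (95% Wilson interval 52.8 to 68.7) of 141 genes raised in both mutants and not by crush, and in 54.3% of all genes. It was found in 50.5% (46.6 to 54.4) of 620 genes raised in all 4 comparisons, in 49.1% (45.6 to 52.5) of 811 genes raised by crush and in neither mutant, in 57.5% (54.1 to 60.9) of 789 genes lowered by crush and in neither mutant, and in 52.6% (44.2 to 60.9) of 133 genes lowered in all 4. Apart from the genes lowered in all 4, the shares ran in the order of UTR length, whose median was 1662 bases in the genes raised in both mutants and not by crush, 1404 in those lowered by crush and in neither mutant, 1262 over all genes, 1017 in those raised in all 4 and 935 in those raised by crush and in neither mutant. The genes lowered in all 4 had a median of 1421 bases and a share below that of all genes. Per 1 kb of UTR, the genes raised in both mutants and not by crush held 0.665 matches, all genes 0.639, the genes raised in all 4 0.652, those raised by crush and in neither mutant 0.650, those lowered by crush and in neither mutant 0.630 and those lowered in all 4 0.517.

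The match to miR-27b-3p (ACTGTGA, read on the sense strand of the UTR) was in 25.5% of the genes raised in both mutants and not by crush and in 18.4% of all genes, and Rgs8 and Cd28 were among them. The match to let-7f-5p (CTACCTC) was in 12.8% and 10.7%. These shares were not scaled to UTR length, which was longer in the class than over all genes. Per 1 kb of UTR, the class held 0.150 matches to miR-27b-3p and all genes 0.128. For let-7f-5p these values were 0.0698 and 0.0706. Among the genes described above, Emid1, Mmp12, Mcoln3, Fst and Gadd45b held none of the 6 matches. A match is a run of letters in an annotated UTR and not a measured site, and these letters were not looked for elsewhere in the transcripts.

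**Figure D5:**
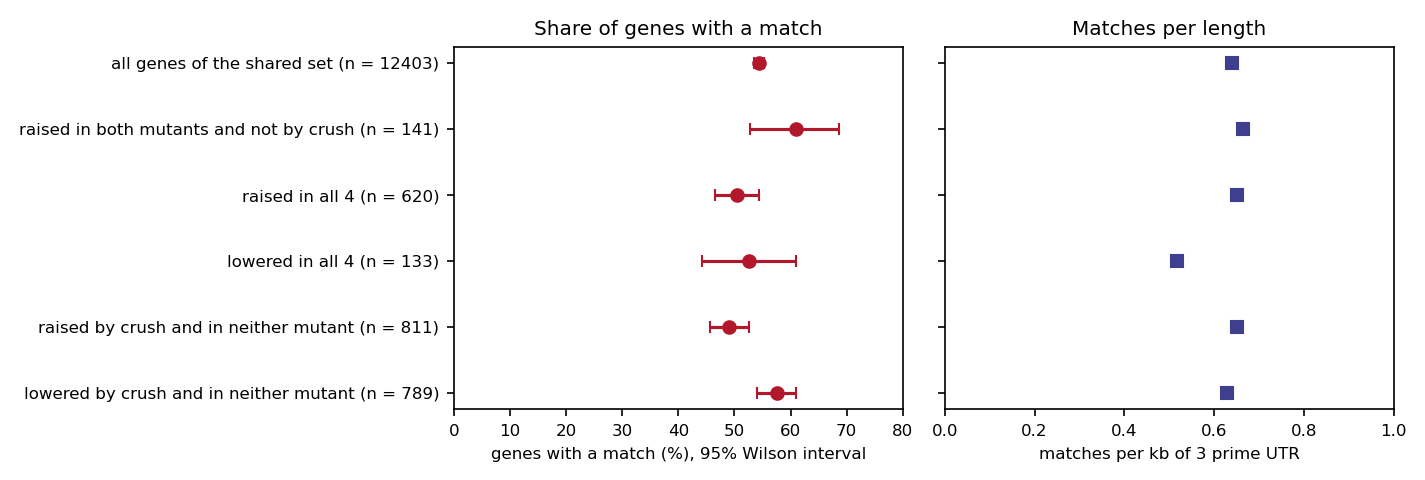
Share of genes with a match to at least 1 of the 6 seeds in the longest 3′ UTR (left, x axis, %, with 95% Wilson intervals) and matches per kb of UTR (right) for 5 gene classes (y axis) and for all genes. The genes raised in both mutants and not by crush stand at 61.0% and all genes at 54.3%, and the interval of that class, 52.8 to 68.7, includes the share of all genes.

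The classes have an edge, and genes near it differ little across it. The genes raised in both mutants that came nearest to a call by crush without one were Tnik, at 0.99 and 0.88 against uncrushed and contralateral nerves, Fnip2, at 0.92 and 1.0, and Coro2a, at 0.66 and 1.0. Those that were called by the smallest margin were AW551984, at 1.01 and 1.45, Ppic, at 1.01 and 1.24, and Nt5e, at 1.02 and 1.36. Under every alternative fit, leave-outs and count filters included, 21 of the 143 genes stayed raised in both mutants and not by crush, among them Mmp12, Emid1, Col5a1, Col16a1, Col26a1, Col27a1, Adam17 and Serpine2, and 503 of the 828 stayed raised by crush and in neither mutant. Of the 640 genes raised in all 4, 188 stayed, and of the 2 genes lowered in both mutants and raised by crush, neither did. Genes called by both crush comparisons but not tested in all 4 comparisons numbered 306 raised and 415 lowered, of which 123 and 295 were not listed in the mutant files.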

How the data were processed

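Whole sciatic nerve RNA was sequenced in 23 libraries, 11 of the crush and 12 of the mutant experiment. The authors trimmed reads with Trimmomatic, aligned them with STAR to the Ensembl genome GRCm38 and deposited RSEM expected counts (estimated counts) per transcript, not scaled to depth or length. The labels name a SMARTer pico kit for crush and a TruSeq kit for the mutants, whereas the methods describe one kit. RSEM divides reads shared between transcripts and gene copies by estimate, which leaves paralogs and pseudogenes uncertain.

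Counts of the transcripts of a gene were added up and rounded to whole numbers. Genes passing filterByExpr (minimum count 10) were fitted for each pair of groups with edgeR 4.0.16 in R 4.3.3 (TMM scaling, quasi-likelihood test, Benjamini-Hochberg adjustment), as in the study's choice of tool and limits. A gene was called at a fold change of at least 2 and an adjusted p of at most 0.05. Differences between a mutant and a crush change were tested with edgeR's quasi-likelihood test in 1 fit of all 23 libraries with 1 mean per group and TMM factors within each experiment, and called at 1 or more on the log2 scale. ± is an approximate standard error of a log2 change or difference, taken as its size over the square root of the F statistic. It is rough at low counts. CPM values are counts per 1000000 of the library total, and comparisons were never made between experiments on that scale. The scripts were tested on simulated data.

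Within each class the named genes were those with the largest smaller change among genes whose mean log2 CPM reached 1, with groups that did not overlap and, for classes of one experiment, all 4 differences called, together with the lists of repair Schwann cell, myelin, let-7 oncofetal and microRNA pathway genes. Other genes were named from lists or families after their values were seen. Some genes that met the rule are not reported here. The classes, lists and members were chosen with earlier results of these data known. 3′ UTRs were taken from GENCODE M21 (GRCm38), the longest per gene, and microRNAs from RefSeq. Replicate libraries differed from each other by more than sampling noise, and each was counted as 1 sample. Printed intervals include counting error alone. Alternatives tried were RLE scaling, DESeq2 1.42.0, other count filters and limits, 1 fit per experiment, protein-coding genes alone, the replicate block, and each library left out.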

Additional observations from a re-analysis of the deposited data

Results flagged for a closer look

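In 10 of 96 groups of 4 libraries of the named genes, the highest or lowest library stood farther from the others than Dixon's 95% critical value allows, and chance alone sets apart about 1 group in 20. In the crushed nerves these were Rgs8, whose highest library was at 2.20 CPM against a median of 1.48, Gadd45b with a highest of 56.9 CPM, Btc with a highest of 116 CPM, Stmn3 with a highest of 1.19 CPM and Emid1 with a lowest of 1.32 CPM. In the contralateral nerves they were Gadd45b with a highest of 5.89 CPM, Fos with a highest of 4.72 CPM, Apoc2 with a highest of 0.236 CPM where most libraries were at 0, Cspg5 with a lowest of 4.61 CPM and Ccdc13 with a lowest of 5.85 CPM. The crushed and control libraries of Gadd45b, Btc, Stmn3 and Emid1 lay apart by far more than these gaps.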

How the results depend on the processing

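Counts are given as raised and lowered, and the number passing all 4 differences in parentheses. At an adjusted p of at most 0.01 the Dicer iKO gave 502 and 56 genes, both mutants 464 and 47, genes raised in both mutants and not by crush 68 (46), lowered in both mutants and not by crush 8 (1), opposite genes 2 (2) and 0 (0), and all 4 comparisons 370 and 37. With no fold limit crush against uncrushed nerves gave 5414 and 3293, against contralateral nerves 5039 and 4078, the Dicer iKO 1556 and 1137, the Dgcr8 iKO 2925 and 2656, both mutants 1372 and 923, crush in both comparisons 4739 and 3111, raised by crush and in neither mutant 2418, lowered in both mutants and not by crush 106 (12), opposite genes 45 (42) and 26 (12), and all 4 comparisons 1153 and 749. With at least 10 counts in every sample fewer genes could be tested, and crush against uncrushed nerves raised 1521, the Dicer iKO gave 584 and 122, both mutants 511 and 105, all 4 comparisons 367 and 87, opposite genes 1 (1) and 0 (0), and 51 and 1 genes moved in both mutants and not by crush passed all 4 differences. With no filter 1349 genes were raised by crush and in neither mutant and 34 lowered in both mutants and not by crush. With crush called against uncrushed nerves alone 10 (10) genes were raised in the mutants and lowered by crush. With a change of at most 0.5 on the log2 scale required in the other experiment, raised in both mutants and not by crush gave 46 (36), raised by crush and in neither mutant 397 (123), lowered in both mutants and not by crush 6 (0) and lowered by crush and in neither mutant 247 (209). Mutant calls from the Dgcr8 iKO alone, an alternative chosen after seeing the data because the sexes were uneven in the Dicer line, gave 1540 and 850 moved genes, 395 (141) raised and 147 (6) lowered and not by crush, 22 (21) opposite, and 1037 and 626 that crush moved likewise. A z test from separate fits put 304 genes raised by crush and in neither mutant and 508 genes in all below the crush change in all 4 differences. In the shortest 3′ UTR of at least 50 bases a seed match was in 38.3% of all genes, 46.8% of those raised in both mutants and not by crush, 36.8% of those raised in all 4, 34.3% of those raised by crush and in neither mutant, 41.3% of those lowered by crush and in neither mutant and 30.1% of those lowered in all 4.

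Correlations of deviations between samples of the same replicate number ran from −0.174 to 0.177. For crushed and contralateral nerves they ran from −0.0942 to 0.177 at the same number and from −0.246 to 0.133 at different numbers. With few pairs and overlapping ranges, these values cannot settle whether the numbers pair the samples. With the replicate block the Dicer iKO gave 530 and 87 genes, both mutants 486 and 76, raised in both mutants and not by crush 76 (50), lowered 13, and all 4 comparisons 384 and 58.

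With each library left out in turn the Dicer iKO gave 494 to 1022 raised and 53 to 348 lowered genes, both mutants 461 to 918 and 43 to 305, raised in both mutants and not by crush 66 to 165 (46 to 93), lowered 4 to 38 (0 to 4), opposite genes 3 to 8 (3 to 8) and 0 to 3 (0 to 3), and all 4 comparisons 372 to 707 and 33 to 242. The libraries that moved these counts by more than 1.5 times were Dicer control 2, without which 529 genes were raised and 85 lowered in both mutants, Dicer iKO replicate 2 (495 and 46), Dicer iKO replicate 3 (461 and 43), Dicer iKO replicate 1, without which 305 were lowered in both, Dicer control 1, without which 215 were lowered in all 4, and Dgcr8 control 3, without which 1 gene was lowered in both mutants and raised by crush. The crush counts and those of the Dgcr8 iKO stayed within 1.5 times under every leave-out. No call of a named gene changed direction, and such calls ended 52 times under a leave-out and 23 times under another setting. Named genes without a call gained one 34 times under a leave-out and 64 times under another setting. RLE scaling, DESeq2, 1 fit per experiment, protein-coding genes alone, TMM over all libraries and crush called against contralateral nerves alone moved no count of called or class genes by more than 1.5 times. Counts within gene lists and families, most of them of few genes, stayed within 1.5 times in 1426 cases and moved further in 140 under a leave-out, and in 1520 and 104 under another setting. With at least 10 counts in every sample, the cell cycle genes raised were 13 against contralateral nerves, 3 in the Dicer iKO and 8 in the Dgcr8 iKO, and the chemokines raised were 4 in each crush comparison and 3 in the Dicer iKO. The same filter left 9 collagen genes lowered in each crush comparison and 20 ribosomal protein genes raised against contralateral nerves, and no filter gave 48 against uncrushed nerves. The causes were not tested. The limits are the 3 mice per mutant group, low counts in many of the leading genes, and library kits that differ between the experiments.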
